A study of Homo sapiens with 7 samples.

Results

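The HOX genes were examined as 38 protein-coding genes of the HOXA, HOXB, HOXC and HOXD clusters, chosen by name from a list made for this work and not by any measured value. Earlier results of these data were known when the choice was made. They are 38 of the 20163 protein-coding genes of the annotation used. HOXA and HOXB have 10 members each, and HOXC and HOXD have 9 each. For every member, the ChIP-seq peak summits in the gene body and in 5 kb on either side were collected, and summits falling in overlapping windows were counted once per cluster.

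HOX genes encode homeodomain transcription factors that set position along the body axis, and several of them act in blood stem and progenitor cells. They lie in 4 clusters on different chromosomes, in an order that follows their paralog number: genes of low number act early and towards the head, and those of high number late and towards the tail and limbs. Trithorax complexes, which methylate lysine 4 of histone H3, keep HOX genes active, and polycomb complexes keep them silent. HOX proteins bind DNA together with TALE homeodomain cofactors of the PBX, MEIS and PKNOX families.

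The samples were ChIP-seq libraries of Kasumi-1, an established human myeloblast line with the t(8;21) translocation, which joins AML1 (RUNX1) to ETO. The cells were untreated and of the same genotype in every group, so the groups differ in the antibody, and the beads of N-CoR and p300 were washed with other buffers than those of AML1, ETO and H3K4me3. A pooled summit list was used for each of H3K4me3, p300, N-CoR, AML1-ETO and AML1. H3K27me3 and input were not analysed here. AML1 is the Runt-domain transcription factor, and its antibody recognises a part of the protein that the fusion lacks. AML1-ETO was precipitated with an antibody to ETO, N-CoR is a corepressor that works with histone deacetylases, p300 is a histone acetyltransferase, and H3K4me3 is the histone mark of active or poised transcription starts. The lists held 19632 summits for H3K4me3, 18087 for AML1-ETO, 11692 for AML1, 11020 for p300 and 10004 for N-CoR, with neither read counts nor peak scores. The depth is therefore unknown from these files, though the paper's supplement lists the reads of each replicate library. No spread between replicates can be given, and no test was made. Intervals in brackets are 95% intervals by the exact Clopper-Pearson method. They cover counting error only and treat neighbouring genes or sites as independent. As a check of the cell label, H3K4me3 lay within 1000 bp of a start of 7 of 8 myeloblast genes (CD34, KIT, MPO, PTPRC, CD33, SPI1 and ELANE, but not LYZ). The genes of other cell types CD3E, CD3D, MS4A1, ALB, GFAP, INS, MYH7, KRT5 and HBB had none at a start.

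H3K4me3 was found at few HOX genes, and these belonged mainly to HOXA. A summit lay within 1000 bp of an annotated transcription start of 9 of the 38 members, or 23.7% (11.4 to 40.2%), while the share over all protein-coding genes was 62.3%. The members were HOXA5, HOXA6, HOXA9, HOXA10, HOXA11, HOXA13, HOXB6, HOXD8 and HOXD13. HOXA thus had 6 of its 10 members marked (26.2 to 87.8%), HOXB 1 of 10 (0.253 to 44.5%), HOXC 0 of 9 (0 to 33.6%) and HOXD 2 of 9 (2.81 to 60.0%). By paralog number, none of the 11 members numbered 1 to 4 was marked, against 4 of the 11 numbered 5 to 8 and 5 of the 16 numbered 9 to 13. Of the 13 paralog groups, 7 had a marked member, and in only 2 of them were members of more than 1 cluster marked: HOXA6 with HOXB6, and HOXA13 with HOXD13. The call depended on the starts that were used. With starts of protein-coding transcripts alone, 5 members remained (HOXA5, HOXA11, HOXA13, HOXD8 and HOXD13).

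Together, the 4 proteins had summits near about as many members as H3K4me3 did. A summit of p300, N-CoR, AML1 or AML1-ETO lay in the window of 18 of the 38 members, or 47.4% (31.0 to 64.2%), beside 61.5% of all protein-coding genes. These were 8 of the 10 HOXA members (all but HOXA11 and HOXA13), HOXB3, HOXB5 and HOXB7, HOXC12 alone in HOXC, and HOXD3, HOXD8, HOXD9, HOXD10, HOXD12 and HOXD13. The count depended on the margin, and with 1 kb in place of 5 kb it was 11 members. With coding spans in place of gene bodies it was 14 members. HOXA3, HOXB3, HOXB7 and HOXD3, which have long annotated bodies, then had no protein summit. For AML1, 12 members had a summit, with 34.9% of all coding genes as background, and for AML1-ETO 13 members, with 41.3%. For p300, 13 members had one (background 45.5%), and for N-CoR 5 did (background 26.7%). An H3K4me3 summit lay anywhere in the window of 17 members, or 44.7%, with a background of 68.0%. All 4 proteins had summits in the windows of HOXA3, HOXA5 and HOXA6, or 3 of the 38 members, where 15.4% of all coding genes had all 4. The HOXA3 body of 46400 bp spans HOXA4, HOXA5 and HOXA6, so its window shares their summits. None of the 4 proteins had a summit within 5 kb of its coding span, which runs from 27147537 to 27150259. Both H3K4me3 at a start and a protein summit were found at 6 members, H3K4me3 at a start without a protein summit at HOXA11, HOXA13 and HOXB6, and a protein summit without H3K4me3 at a start at 12. The other 17 members had no summit of any of the 5 lists in their windows: HOXB1, HOXB2, HOXB4, HOXB8, HOXB9, HOXB13, HOXC4, HOXC5, HOXC6, HOXC8, HOXC9, HOXC10, HOXC11, HOXC13, HOXD1, HOXD4 and HOXD11. HOXB4, which is known to expand blood stem cells, was therefore among the genes without a summit. AML1-ETO, N-CoR and p300 lay 9373, 9374 and 9320 bp upstream of its start, and with a margin of 10 kb HOXB4 counted as having a protein summit.

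**Figure D1:**
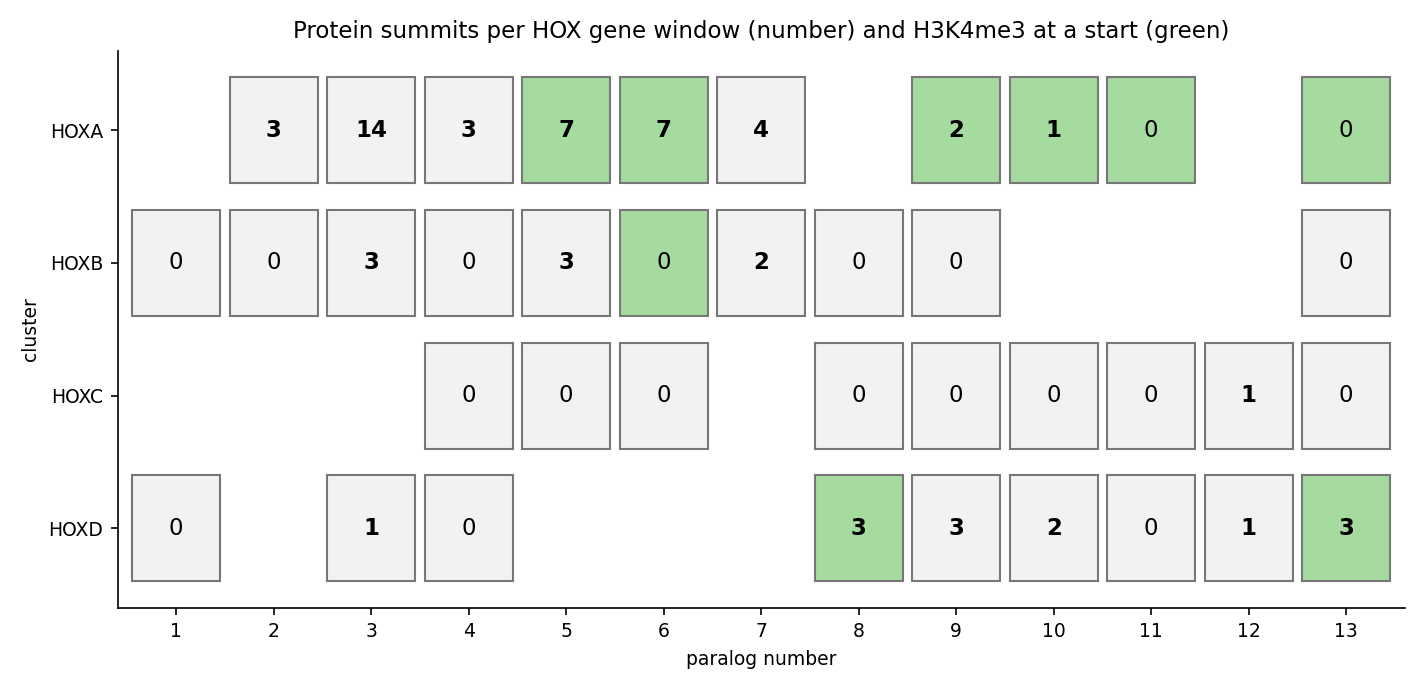
Number of summits of the 4 proteins in the window of each of the 38 HOX genes, by cluster (rows) and paralog number (columns); green squares have an H3K4me3 summit within 1000 bp of a start, and a summit in overlapping windows is counted for each gene. The numbers and the green squares gather in the HOXA row, from HOXA2 to HOXA13, and the HOXC row holds 1 summit at HOXC12 and no green square.

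Since windows of neighbouring genes overlap, the same summit can count for several members. Counted once, the windows held 54 summits over 464 kb, of which 20 were of H3K4me3, 11 of AML1-ETO, 11 of p300, 9 of AML1 and 3 of N-CoR. HOXA held 30 of them: 11 of H3K4me3, 6 of AML1-ETO, 6 of p300, 5 of AML1 and 2 of N-CoR. HOXD held 8 of H3K4me3, 4 of AML1, 3 of p300 and 2 of AML1-ETO. In HOXB there were 2 of AML1-ETO, 2 of p300, 1 of N-CoR and 1 of H3K4me3, and in HOXC a lone AML1-ETO summit. No AML1 summit thus lay in HOXB or HOXC, and no N-CoR summit in HOXC or HOXD. The nearest N-CoR summit to a HOXD start was 302735 bp from HOXD1 and 398682 bp from HOXD13.

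**Figure D2:**
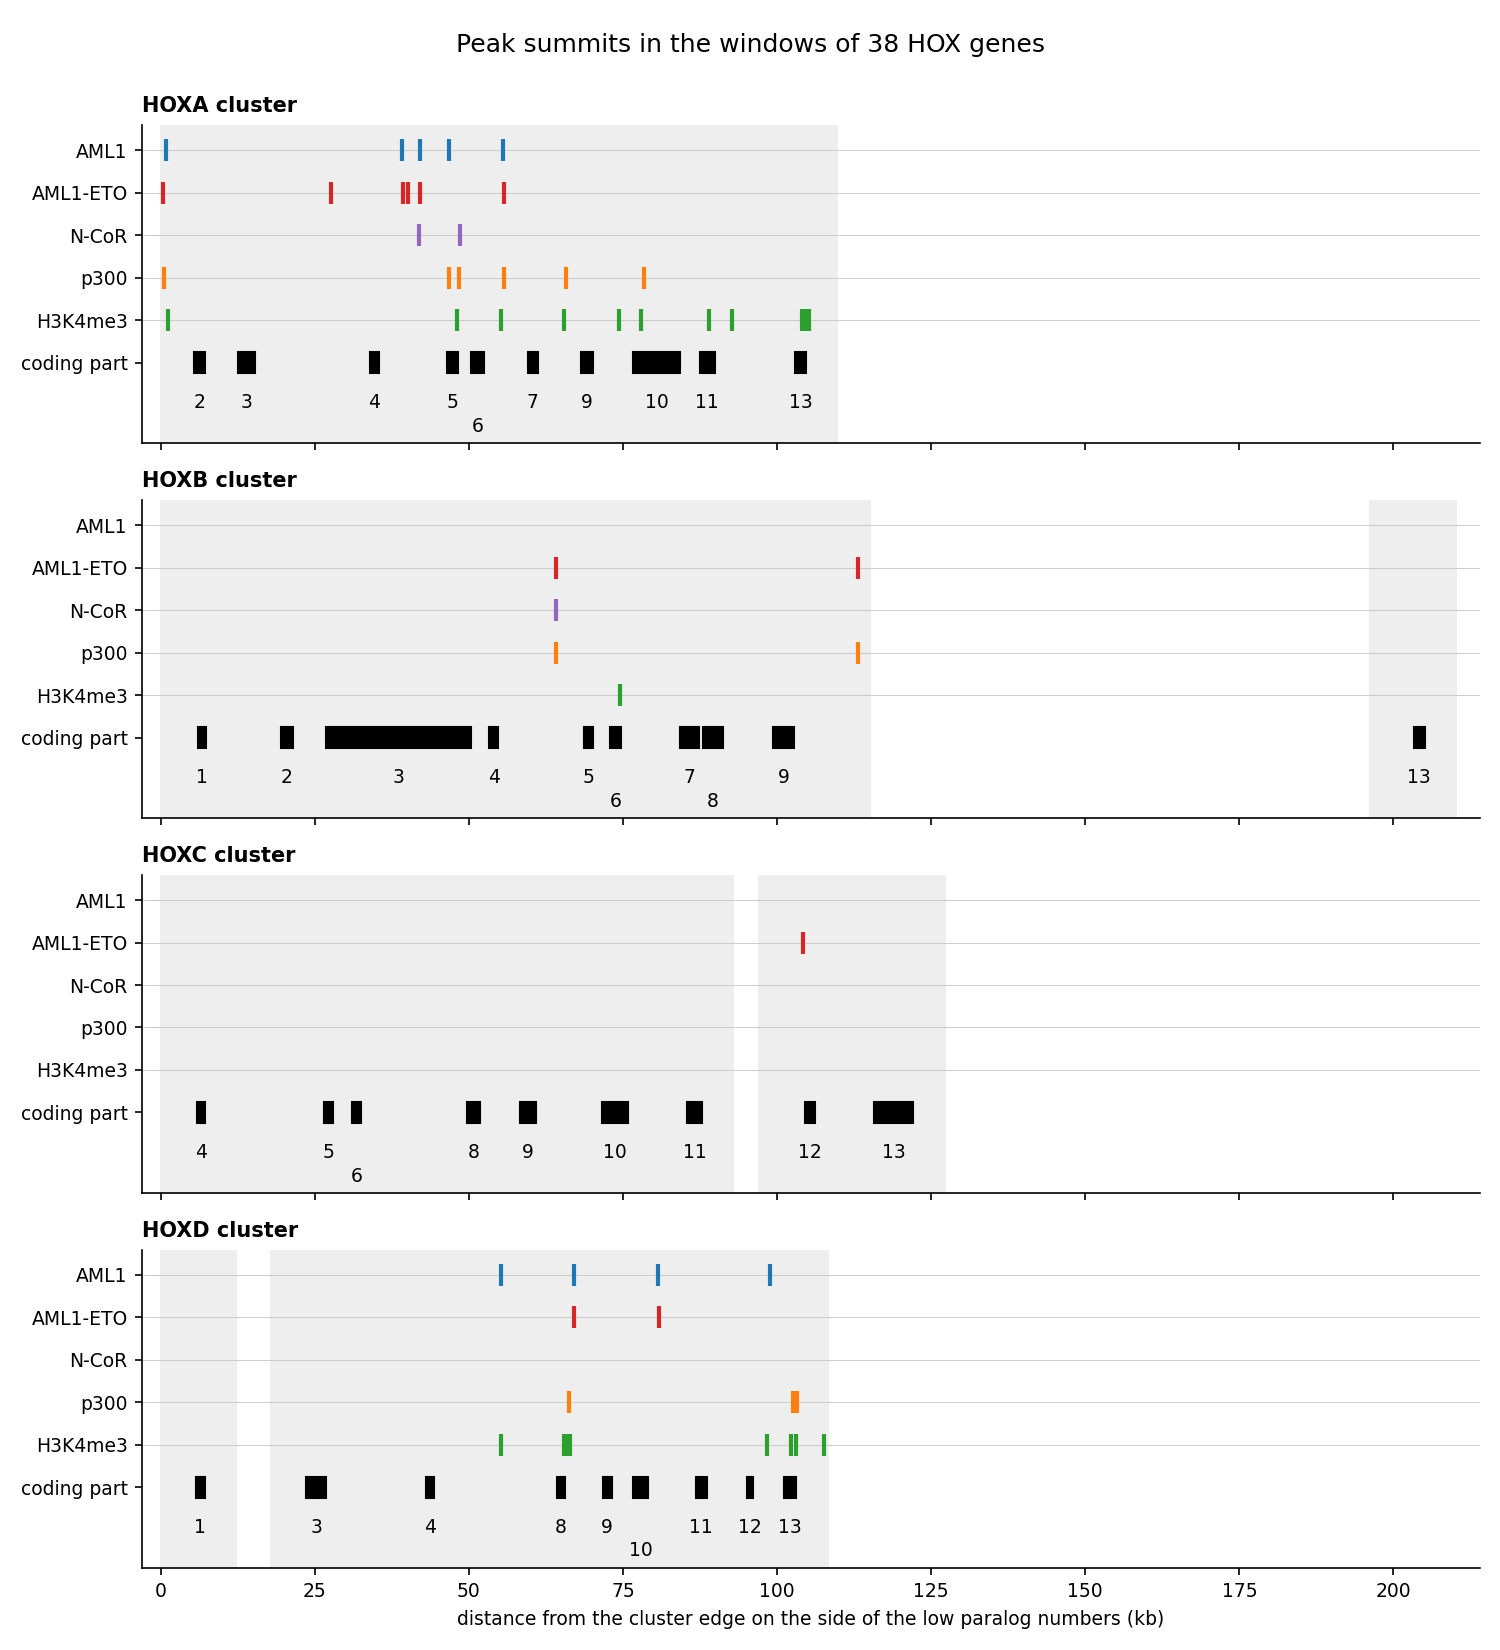
Position of every summit in the 4 clusters, in kb from the edge on the side of the low paralog numbers; grey marks the gene windows, black boxes the coding part of each member with its paralog number, and ticks the summits of each list. H3K4me3 runs through HOXA from HOXA5 to HOXA13 and forms groups at HOXD8 and HOXD13, and HOXC has 1 AML1-ETO tick and no H3K4me3.

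Whether the clusters look rich or poor in summits depended on the denominator. HOX genes are short and packed, with a median length of 4218.5 bp against 27219 bp for all coding genes, and 8.18 genes per 100 kb of window against 1.41. Per 100 kb of window, H3K4me3 summits numbered 10.0 in HOXA, 7.80 in HOXD, 0.775 in HOXB and 0 in HOXC, and 1.24 over all coding genes. Per gene they numbered 1.1 in HOXA, 0.889 in HOXD, 0.1 in HOXB and 0 in HOXC, and 0.874 over all coding genes. HOXB and HOXC were therefore below the value of all coding genes on both scales, HOXA was above it on both, and HOXD was well above it per length and close to it per gene. For the proteins, the order over all 38 members turned with the scale. Each of the 4 had more summits per 100 kb than all coding genes had: 0.646 against 0.503 for N-CoR, 1.94 against 0.586 for AML1, 2.37 against 0.664 for p300 and 2.37 against 0.922 for AML1-ETO. Each had fewer summits per gene: 0.0789 against 0.355 for N-CoR, 0.237 against 0.415 for AML1, 0.289 against 0.470 for p300 and 0.289 against 0.652 for AML1-ETO.

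**Figure D3:**
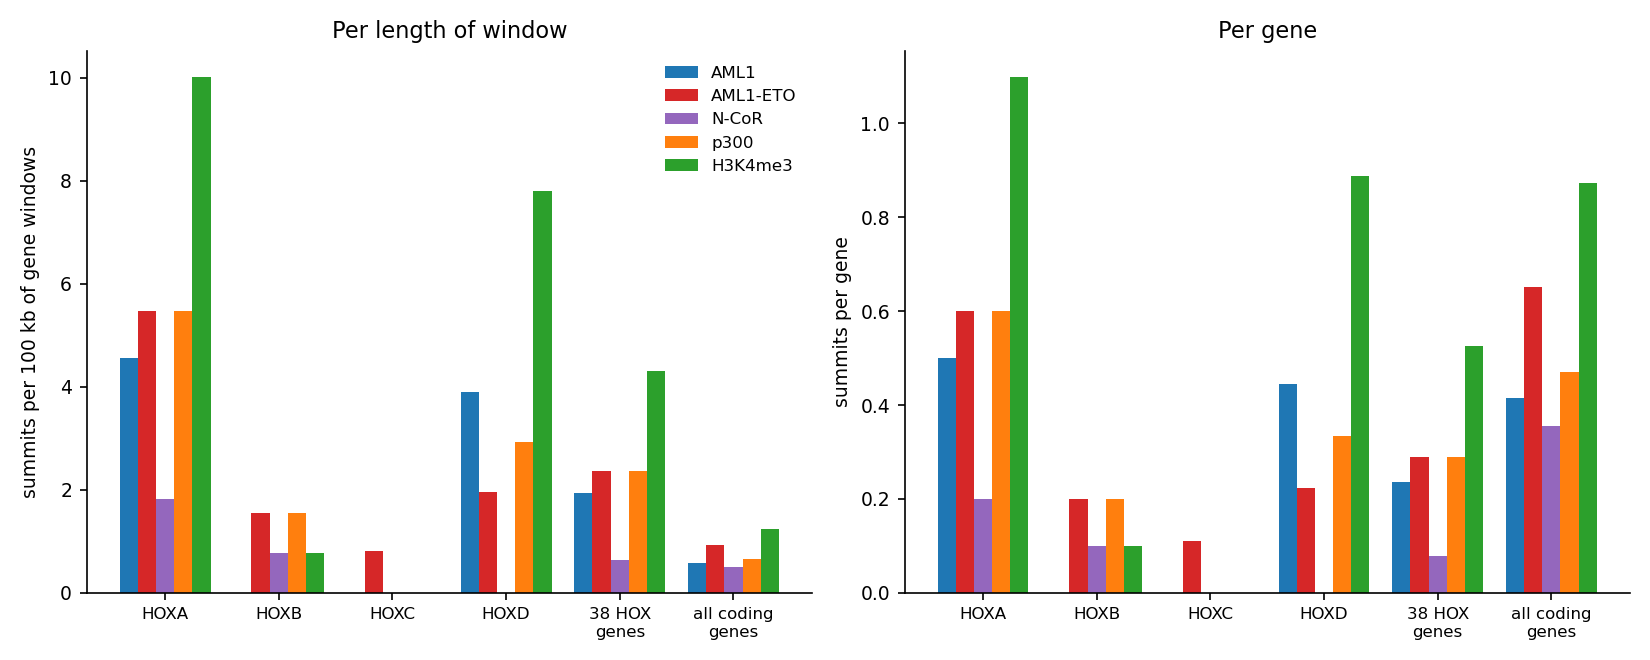
Summits of each list per 100 kb of gene windows (left) and per gene (right) in each cluster, in the 38 HOX genes together and in all 20163 protein-coding genes; bars are counts from pooled lists and have no error bars. H3K4me3 in HOXA stands at 10.0 per 100 kb and 1.1 per gene, while HOXC has none on either scale.

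Along HOXA, the first summits met from the side of the low numbers lay at HOTAIRM1, a long noncoding RNA of myeloid cells. AML1 was 3 bp, AML1-ETO 25 bp, p300 174 bp and H3K4me3 374 bp from a HOTAIRM1 start. All 4 fell in the window of HOXA2, a hindbrain gene, but were 6556, 7011, 6763 and 6076 bp from its own start. HOXA2 therefore counted as having 3 proteins in its window and as not marked by H3K4me3. From the HOTAIRM1 summit onwards, 46.8 kb of HOXA had no H3K4me3, up to HOXA5.

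That stretch spans HOXA3, which is needed for the organs of the pharynx, and HOXA4, and 4 of the 12 HOXA protein sites lay in it before HOXA5. A site is here a run of the 100 bp windows of the 4 proteins that share at least 1 bp. An AML1-ETO summit stood alone 3417 bp upstream of a HOXA3 start and 156 bp from a start of the antisense gene HOXA-AS2. AML1 and AML1-ETO shared a site 3817 bp upstream of HOXA4 with summits 65 bp apart, and AML1-ETO was alone again 4699 bp downstream of a HOXA3 start. The last site, between HOXA4 and HOXA5, brought together AML1, AML1-ETO and N-CoR within 41 bp. The distances of the 4 sites to H3K4me3 were 20363, 8778, 7868 and 6044 bp. All were in introns of the long HOXA3 transcript or by the HOXA-AS2 start, and p300 was in none of them. The sequences of the 2 sites with more than 1 protein are shown because 1 holds Runx letters and the other holds ETS letters only. They are the forward strand of GRCh37 (hg19), 5′ to 3′, with capitals marking matches on either strand to TGTGGT (Runx; ACCACA on the other strand), AGGAAG (ETS) and GAGGAA (PU.1).
AML1 and AML1-ETO upstream of HOXA4, chr7:27174134-27174298: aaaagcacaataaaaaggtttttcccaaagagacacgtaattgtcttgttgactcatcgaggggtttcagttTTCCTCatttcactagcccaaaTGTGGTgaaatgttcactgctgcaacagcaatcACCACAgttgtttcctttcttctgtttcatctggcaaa
AML1, AML1-ETO and N-CoR between HOXA4 and HOXA5, chr7:27176880-27177020: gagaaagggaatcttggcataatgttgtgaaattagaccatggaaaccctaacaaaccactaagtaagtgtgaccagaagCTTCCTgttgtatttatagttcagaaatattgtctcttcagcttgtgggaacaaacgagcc
The first held 2 Runx matches, in opposite directions, and 1 PU.1 match. The second held no Runx match and 1 ETS match, and its 3 summits were at 27176930 (N-CoR), 27176955 (AML1) and 27176971 (AML1-ETO).

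HOXA5 and HOXA6 had both H3K4me3 at a start and all 4 proteins in their windows. At HOXA5 the H3K4me3 summit lay 306 bp inside the gene, p300 and N-CoR 87 and 143 bp upstream of the start, and AML1 and p300 637 and 659 bp downstream of another start. At HOXA6, H3K4me3 was 23 bp upstream of a start, with AML1, p300 and AML1-ETO 314, 391 and 416 bp upstream. This was the only HOX site that joined AML1, AML1-ETO and p300, and its sequence is given for that reason, with capitals as before.
AML1, AML1-ETO and p300 upstream of HOXA6, chr7:27190486-27190687: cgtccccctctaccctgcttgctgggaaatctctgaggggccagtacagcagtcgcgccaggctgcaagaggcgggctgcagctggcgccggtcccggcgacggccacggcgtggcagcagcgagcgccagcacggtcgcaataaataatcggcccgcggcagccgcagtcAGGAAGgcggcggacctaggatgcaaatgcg
It had 1 ETS match and no Runx match, with a GC content of 68.3%, whereas the site upstream of HOXA4 had 40% and the one between HOXA4 and HOXA5 39.7%. The start of HOXA6 used here is not that of a coding transcript.

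Between the site upstream of HOXA6 and the end of the HOXA13 window, p300 was the only protein with summits. HOXA7 had no mark at a start, but an H3K4me3 summit 2848 bp and a p300 summit 3143 bp upstream, 295 bp apart. HOXA9 and HOXA10 are expressed in blood progenitors, and HOXA9 is known for driving self-renewal in myeloid leukaemia. At HOXA10, H3K4me3 lay 286 bp upstream of a start and p300 590 bp downstream of another, and the summits were 481 bp apart. At HOXA9, the H3K4me3 summit (27209279) was 77 bp from a start that is not of a coding transcript, and outside the coding span of the gene, which runs from 27203225 to 27205076, and 96 bp from the start of MIR196B. The 2 members at the end of the cluster, which pattern limbs and the urogenital tract, had H3K4me3 and no protein. HOXA11 had summits 875 bp downstream and 2784 bp upstream of annotated starts, each within 200 bp of a start of the antisense gene HOXA11-AS (159 and 197 bp). HOXA13 had 3 summits, 467 bp upstream and 52 and 773 bp downstream, 2 of which were 121 and 73 bp from starts of HOTTIP, the noncoding RNA that brings a trithorax complex to the neighbouring HOXA genes.

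HOXB held few summits. Its only H3K4me3 summit was at HOXB6, 929 bp upstream of a start and inside the coding span, and 74.5 kb from the window edge to this summit were free of the mark. An AML1-ETO and a p300 summit stood 3009 and 3144 bp upstream of the HOXB7 5′ end (46710934), 135 bp apart, in windows that did not overlap. The coding span of HOXB7 runs from 46685207 to 46688280, and HOXB8 and HOXB9 lie between it and that 5′ end. With coding spans in place of gene bodies, HOXB held 1 AML1-ETO and 1 p300 summit, and these 2 were not among them. The site with most proteins was in an intron of the long HOXB3 gene, between HOXB4 and HOXB5. AML1-ETO and N-CoR summits were 1 bp apart there and p300 was 53 bp from AML1-ETO. This site is printed because no AML1 summit accompanied the fusion there, the nearest being 104055 bp away.
AML1-ETO, N-CoR and p300 in HOXB3, chr17:46664982-46665135: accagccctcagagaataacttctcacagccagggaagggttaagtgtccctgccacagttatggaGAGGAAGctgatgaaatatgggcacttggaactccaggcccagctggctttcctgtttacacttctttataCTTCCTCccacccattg
Both stretches in capitals read GAGGAAG, 1 on each strand, in which the PU.1 and ETS letters overlap, and there was no Runx match. In HOXC, the only summit was of AML1-ETO, 1896 bp downstream of the HOXC12 start in an exon, with an ETS match. The nearest H3K4me3 summits to HOXC starts lay between 134926 bp (HOXC4) and 215633 bp (HOXC11) away.

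In HOXD the summits formed 2 groups, at HOXD13 and HOXD8, with a few between and beyond them. At HOXD13, a limb and digit gene, H3K4me3 summits lay 85 and 879 bp downstream of the start and p300 summits 35 and 532 bp downstream. Further H3K4me3 summits were 4444 bp upstream of HOXD13 and 2269 bp upstream of HOXD12, the latter 545 bp from an AML1 summit whose window held a Runx match. At HOXD8, H3K4me3 lay 157 and 51 bp upstream and 57 bp downstream of annotated starts and p300 20 bp upstream, with AML1 and AML1-ETO 791 and 798 bp upstream. AML1 and AML1-ETO also shared a site in HOXD10, 1623 bp upstream of a start and 14382 bp from H3K4me3. In the long HOXD3 gene, AML1 was 115 bp from an H3K4me3 summit, both over 3 kb downstream of the nearest HOXD3 start (3702 and 3817 bp). From there, 37.3 kb up to the edge of the HOXD3 window had no summit of any list. The 2 shared sites of AML1 and AML1-ETO are shown, 1 away from H3K4me3 and 1 beside it.
AML1 and AML1-ETO in HOXD10, chr2:176979817-176979948: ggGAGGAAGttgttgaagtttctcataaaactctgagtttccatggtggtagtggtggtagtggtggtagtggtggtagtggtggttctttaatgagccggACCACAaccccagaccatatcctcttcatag
AML1 and AML1-ETO upstream of HOXD8, chr2:176993574-176993680: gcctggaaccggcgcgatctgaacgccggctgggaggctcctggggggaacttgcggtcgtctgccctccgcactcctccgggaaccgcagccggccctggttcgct
The HOXD10 site held a Runx match and overlapping ETS and PU.1 matches, with a GC content of 47.7%. The HOXD8 site, with 72.0%, held no match to any of the 3, and 2 matches to TGCGGT, a variant of the Runx letters that is left in lower case.

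The clusters held 23 protein sites, 12 in HOXA, 7 in HOXD, 3 in HOXB and 1 in HOXC, of 29442 in the genome. More than 1 protein was present at 8 of the 23, or 34.8% (16.4 to 57.3%), against 43.0% in the genome. AML1 was present at 9 sites (39.1%, genome 39.7%), AML1-ETO at 11 (47.8%, genome 61.4%), p300 at 11 (47.8%, genome 37.4%) and N-CoR at 3 (13%, genome 34.0%). AML1 and AML1-ETO shared 5 sites, AML1-ETO and N-CoR shared 2, and no site had all 4 proteins (0 to 14.8%), which 7.76% of the sites in the genome had. The interval for N-CoR (2.78 to 33.6%) ended just below the genome value, and those for AML1 (19.7 to 61.5%), AML1-ETO (26.8 to 69.4%) and p300 (26.8 to 69.4%) included it.

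Sites near H3K4me3 held p300 more often, and sites away from it AML1-ETO, in counts too small for more than a description. Of the 13 sites with an H3K4me3 summit within 1000 bp of their centre, 8 had p300 and 3 had AML1-ETO, and their median GC content, taken over 100 bp around the centre, was 67%. Of the 10 sites further away, 3 had p300 and 8 had AML1-ETO, and the median GC content was 51%. AML1 was spread over both, with 5 of 13 and 4 of 10. Runx matches, counted within 50 bp of the centre, were in 2 of the 13 and 4 of the 10. The genome showed the same order for p300, at 63.6% of near and 18.3% of distant sites, and for AML1-ETO, at 39.9 and 77.2%. So it did for Runx matches, in 7.37 and 36.2%, and for median GC contents, of 66 and 51%. AML1, spread over both kinds of site in the clusters, was at 27.7% of near and 48.5% of distant sites in the genome. GC content moved with the distance to H3K4me3 in both, and its part in the make-up of the sites was not tested. The share of sites near H3K4me3 was 56.5% in the clusters (34.5 to 76.8%) and 42.2% in the genome.

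**Figure D4:**
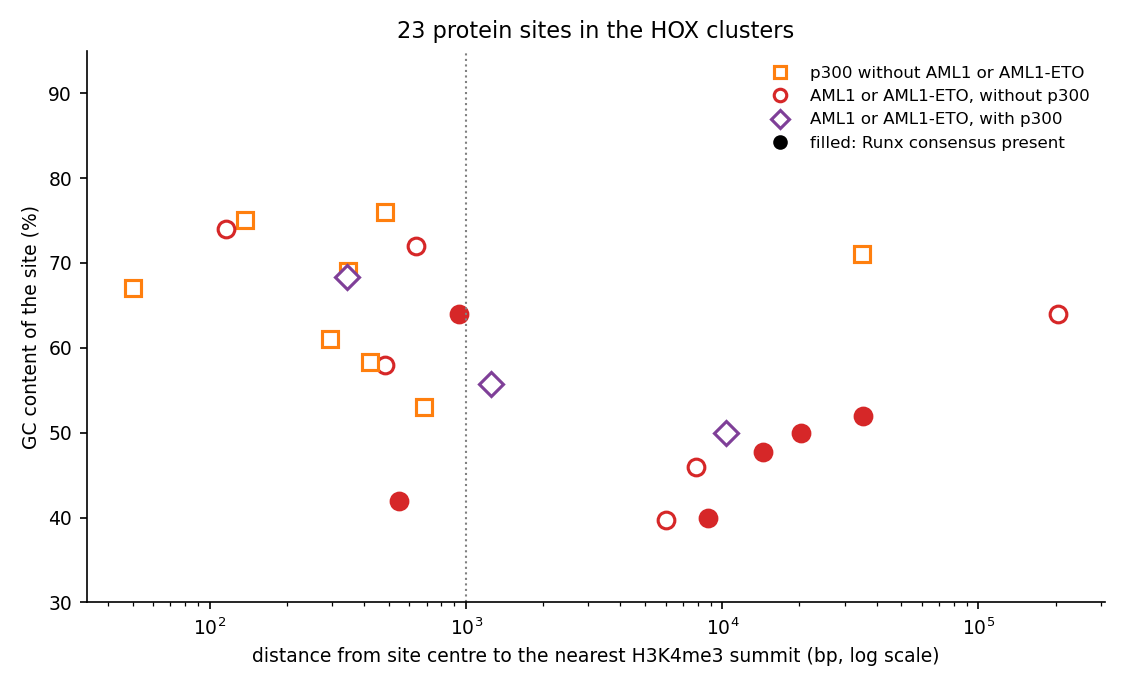
Distance from the centre of each of the 23 sites to the nearest H3K4me3 summit (bp, log scale) against GC content over the whole site (%), with symbols for the proteins present and filled symbols for sites with a Runx match; the dotted line is at 1000 bp. Sites with p300 and without AML1 or AML1-ETO lie mainly to the left of the line, and 9 of the 10 sites to its right have AML1 or AML1-ETO.

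Over all 23 sites, counted within 50 bp of the site centre on either strand, TGTGGT was found in 6 (26.1%, genome 24.0%), AGGAAG in 6 (26.1%, genome 33.1%) and GAGGAA in 3 (13%, genome 23%). AML1 windows in the clusters held TGTGGT in 3 of 9 cases and AML1-ETO windows in 4 of 11, beside 40.6 and 31.3% of all windows of these lists. AGGAAG was in 6 of the 11 AML1-ETO windows and 1 of the 9 AML1 windows, beside 37.5 and 37.7%. No p300 or N-CoR window in the clusters held TGTGGT (0 of 11 and 0 of 3), which was in 6.66 and 19.5% of those lists.

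From the side of H3K4me3, 12 of the 20 HOX summits (60%, 36.1 to 80.9%) had a protein within 1000 bp, and 59.5% of all H3K4me3 summits did. For p300 the share was 10 of 20 (50%, all summits 47.3%) and for AML1 5 of 20 (25%, all 20.7%). For AML1-ETO it was 3 of 20 (15%, all 28.4%) and for N-CoR 1 of 20 (5%, all 15.7%), values whose intervals (3.21 to 37.9% and 0.127 to 24.9%) include those of all summits. A transcription start of some gene lay within 1000 bp of 16 of the 20 (80%, all 87.8%), and a start of a member within that distance of 14. AML1-ETO accompanied the mark at HOTAIRM1, HOXA6 and HOXD8, and N-CoR did so at HOXA5.

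The CpG content at the 5′ ends of HOX genes was close to that of all coding genes, while the mark was less frequent. CpG islands are the usual place of H3K4me3, and the ratio of observed to expected CpG within 500 bp of the 5′ end was taken as their measure. Its median was 0.682 over the 38 members and 0.686 over all coding genes, for which it was 0.784 with H3K4me3 at the 5′ end and 0.314 without. A ratio of at least 0.6 was found at 26 members (68.4%), at 59.7% of all coding genes and at 88.6% of those with H3K4me3 at the 5′ end. Of these 26, 5 had H3K4me3 within 1000 bp of the 5′ end, or 19.2% (6.55 to 39.4%), whereas 80.5% of all coding genes with such a ratio had it. The background for H3K4me3 at the 5′ end over all coding genes was 54.2%. By cluster the counts were 3 of 6 in HOXA, 0 of 5 in HOXB, 0 of 7 in HOXC and 2 of 8 in HOXD. HOXC12 (0.933), HOXD9 (0.890), HOXD1 (0.880) and HOXB8 (0.865) had the highest ratios among the unmarked, and HOXA5 (0.98), HOXD8 (0.943) and HOXA13 (0.921) among the marked. HOXA9, HOXA10 and HOXB6 counted as unmarked here, since their H3K4me3 lay by another start than the 5′ end.

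**Figure D5:**
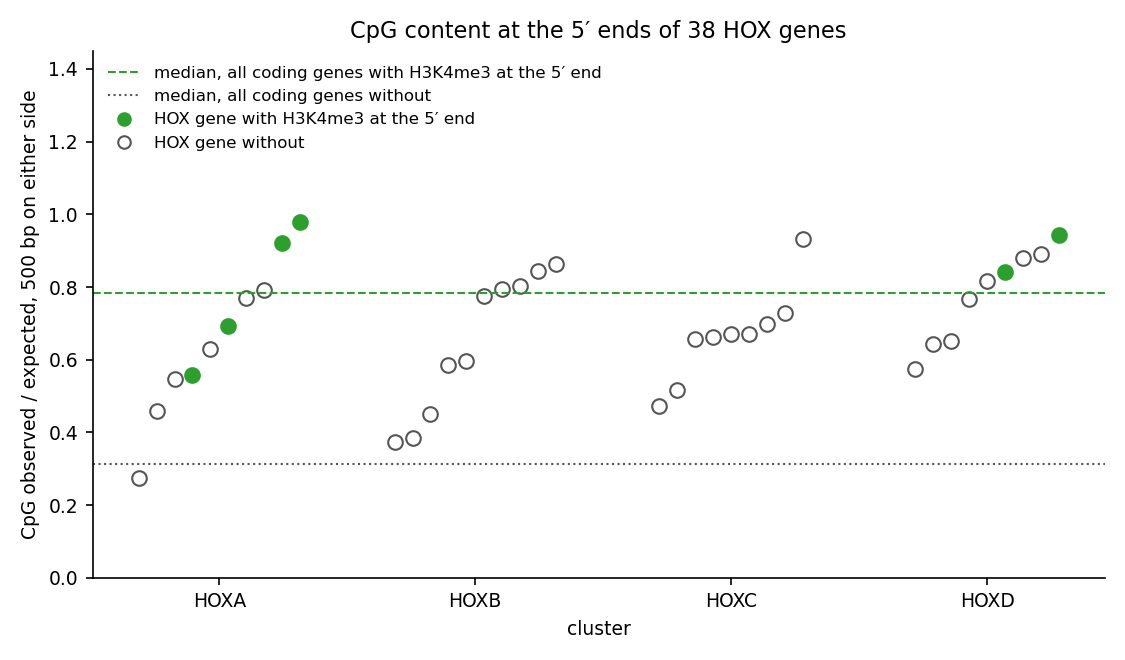
Ratio of observed to expected CpG within 500 bp of the 5′ end of each of the 38 HOX genes, ordered by value within each cluster; filled points have H3K4me3 within 1000 bp of the 5′ end, and the lines are the medians of all coding genes with (0.784) and without (0.314) it. All points of HOXB and HOXC are open, up to 0.865 and 0.933. The highest point of HOXA (HOXA5, 0.98) and of HOXD (HOXD8, 0.943) is filled, while the next in HOXD, HOXD9 (0.890) and HOXD1 (0.880), are open.

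Noncoding genes inside the clusters overlap HOX genes and share summits with them, so their marks are no separate observation. Of 16 genes found in the annotation, H3K4me3 was at a start of 6, beside 62.3% of all coding genes. All 6 were in HOXA: HOTAIRM1, HOTTIP, HOXA-AS3, HOXA10-AS, HOXA11-AS and MIR196B. The summits at HOTTIP, HOXA11-AS and MIR196B were those given above for HOXA13, HOXA11 and HOXA9. In HOXD, where HOXD8 and HOXD13 were marked, neither HOXD-AS2 nor MIR10B was. HOTAIR, which is transcribed from HOXC and known for binding polycomb proteins, had no summit of any list in its window, and neither had HOXB-AS1, HOXC-AS1, MIR196A2, MIR10B and MIR615. HOXA-AS2, HOXB-AS3, HOXD-AS2 and MIR196A1 had protein summits but no H3K4me3 at a start. The miR-196 genes lie in 3 of the clusters and repress HOX transcripts such as that of HOXB8. Their 5p products are printed because they share a seed while their genes differed in the distance to the mark. The sequences are RefSeq's, with the seed (bases 2 to 8) in capitals.
miR-196a-5p, from MIR196A1 in HOXB and MIR196A2 in HOXC: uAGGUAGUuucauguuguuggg
miR-196b-5p, from MIR196B in HOXA: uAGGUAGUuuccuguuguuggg
They differed at 1 of 22 bases, A12C counted from the 5′ end of miR-196a-5p, outside the seed. The nearest H3K4me3 summit was 96 bp from the start of MIR196B, 34496 bp from that of MIR196A1 and 197023 bp from that of MIR196A2. These annotated genes span only 85, 70 and 110 bp, so their starts need not be transcription starts.

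Genes of HOX cofactors and of the HOX-regulating complexes were marked more often than the HOX genes. H3K4me3 was at a start of 7 of 9 TALE cofactor genes, all but MEIS3 and PKNOX2, and 6 of 9 had a protein summit, beside 62.3 and 61.5% of all coding genes. The count with a protein summit was thus near the background. MEIS1, the partner of HOXA9 in leukaemia, had 3 AML1 summits, 1 of p300 and 2 of H3K4me3 in its window, the nearest 6, 52 and 105 bp from a start, while the nearest AML1-ETO summit was 492381 bp from a start. All 7 genes on the trithorax side (KMT2A, MEN1, PSIP1, DOT1L, ASH2L, WDR5 and RBBP5) were marked and had a protein summit. Of the 14 polycomb genes, all were marked and 11 had a protein summit, the exceptions being RNF2, CBX7 and PHC1. KMT2A, the H3K4 methyltransferase of HOX genes, had all 4 proteins and H3K4me3 within 200 bp of a start (AML1 165 bp, AML1-ETO 140 bp, N-CoR 178 bp, p300 156 bp and H3K4me3 53 bp). The caudal genes CDX1, CDX2 and CDX4, which act upstream of HOX genes, had neither H3K4me3 at a start nor a protein summit.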

How the data were processed

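The authors called bases with CASAVA 1.6, aligned the reads to GRCh37 (hg19) with Bowtie 0.12.8, pooled 2 replicates per antibody and called peaks with MACS2 2.0.10.20131216 at p < 1e-20, per the paper's methods and the submitters' processing notes. The deposited lists hold peak positions and a peak number, with no score or count, and how the numbers were ordered is not given in the sources used here. Every interval is 100 bp wide, with the summit 50 bp from its start.

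Genes, starts and introns come from GENCODE release 44 lifted to GRCh37. A gene's window is its annotated body and 5 kb on either side, and a start counts as marked when H3K4me3 lies within 1000 bp. Sites, motifs (either strand) and base composition were computed from the summit positions and the GRCh37 sequence, and shares were given with exact Clopper-Pearson intervals (SciPy 1.17.1). miRNA sequences are from RefSeq. Python 3.11.15 and numpy 2.4.6 were used, and figures were drawn with matplotlib 3.10.9. On simulated data, all 200 planted summits, 120 overlaps and 250 motifs were recovered.

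All members were accounted for, and named genes are those with H3K4me3 at a start or a protein summit, and the members of the lists given. The members and lists were chosen with earlier results of these data known. Alternatives were other margins, distances, transcript sets, window widths, motif letters and the first part of each list in deposited order. Some genes of these lists are not reported here by name.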

Additional observations from a re-analysis of the deposited data

How the results depend on the processing

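Of 49 alternative values of 10 results, 40 stayed within 1.5 times the reported value and 9 did not. Because the lists have no score, a stricter peak threshold could not be applied, and the first 50% of each list in deposited order was taken instead. It left 3 AML1, 2 AML1-ETO, 3 p300 and 6 H3K4me3 summits and 3 members with H3K4me3 at a start (HOXA5, HOXA10 and HOXD13). Without a margin around the gene bodies, 7 p300 and 13 H3K4me3 summits remained, and with 1 kb in place of 5 kb, 11 members had a protein summit. With starts of protein-coding transcripts alone, 5 members were marked by H3K4me3. HOXC had no H3K4me3 summit and HOXB no AML1 summit in the reported windows, and narrower windows or shorter lists could not add one. With a margin of 10 kb, which could, the windows of all members still held 20 H3K4me3 and 9 AML1 summits. No paired analysis was possible because the replicates of each antibody were pooled into 1 list before peak calling, and for the same reason no replicate could be left out. Read depth is not in these files, and the paper's supplement gives it per replicate library. It limits what a missing summit can show: at this peak threshold a missing summit is no proof that the mark or protein was absent.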

Other observations

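H3K4me3 lay within 1000 bp of a start of 5 of 10 genes beside the clusters, near the 62.3% of all coding genes: SKAP2 beside HOXA, SMUG1 and CALCOCO1 on either side of HOXC, and MTX2 and LNPK on either side of HOXD. SMUG1 and CALCOCO1 had H3K4me3 110 and 153 bp and AML1 165 and 57 bp from a start, so that HOXC without the mark lay between 2 marked genes. The homeobox genes next to the ends of HOXA and HOXD with high paralog numbers, EVX1 and EVX2, had none, and their nearest H3K4me3 summits were 7046 and 4315 bp from a start. SKAP1, PRAC1 and PRAC2 had none either. No neighbour had an N-CoR summit in its window.

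HOX summits had high peak numbers in 4 of the 5 lists. Their median number was 13727 of 18087 for AML1-ETO, 13855.5 of 19632 for H3K4me3, 8069 of 11020 for p300 and 7102 of 11692 for AML1, and 3728 of 10004 for the 3 N-CoR summits. What the order of the numbers stands for is not given in the sources used here.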
